A study of Mus musculus with 18 samples.

Results

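The 47 genes described here drive or brake cell division: proliferation markers, D-type and E-type cyclins, E2F factors and Rb1, inhibitors of cyclin-dependent kinases (CDKs), origin licensing factors, enzymes of DNA synthesis, mitotic cyclins and kinases, and spindle proteins. They were taken from a list of gene symbols, each symbol matched 1 identifier among the 55401 genes counted, and all 47 had 3 or more counts in at least 1 library, so none was dropped. Levels were measured by strand-specific RNA sequencing of mouse macrophages in 6 groups of 3 libraries, 18 in all, and every group received lipopolysaccharide (LPS, the bacterial ligand of the receptor TLR4) at 5 ng/ml for 6 h. No group without LPS was analysed here, so the response to LPS itself is not measured. Primary peritoneal macrophages of C57BL/6J background came from wild-type mice (WT) or from SMIM30-Mut mice (Mut), which carry a mutation in the gene of the small membrane protein SMIM30. Further Mut macrophages received, 6 h after seeding, either a control adenovirus (Mut AdCtrl) or an adenovirus encoding SMIM30 (Mut AdSmim30), and LPS was added after 24 h. Cells of the macrophage line IC-21 were transfected for 24 h with control siRNA (siCtrl) or siRNA against Smim30 (siSmim30) before LPS. IC-21 was derived from C57BL/6 mouse peritoneal macrophages by transformation with a simian virus whose large T antigen binds the retinoblastoma protein and p53. Nothing in the labels says if the 3 libraries of a group come from different animals or dishes, and p-values therefore reflect the scatter among libraries, which may be technical. Neither the ages of the mice nor the kind of mutation is given in the sources used here.

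A resting cell enters division when growth factor signals raise D-type cyclins, which with CDK4 and CDK6 phosphorylate the retinoblastoma protein and so release the E2F transcription factors. E2F factors then switch on the genes of the G1/S step, among them cyclin E, the MCM helicase and the enzymes that make deoxynucleotides, and a later wave of transcription from promoters with a CHR element brings up cyclin B, CDK1 and the spindle proteins. CDK inhibitors such as p21, p27 and p16 hold this sequence back. Mature peritoneal macrophages mostly rest outside the cell cycle, whereas a cell line must divide to be kept.

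Motifs of both waves occur in the promoters of some of these genes. The sequences below were chosen because they show the contrast between G1/S genes and mitotic genes, and they come from RefSeq promoters on GRCm38.p6, each printed in the direction of transcription and ending at or before the annotated start. Capitals mark 3 kinds of motif searched on both strands: the E2F words TTTCCCGC, TTTCGCGC, TTTGCCGC and TTTGGCGC, the CHR word TTTGAA, and CCAAT, which reads ATTGG on the other strand. E2F words on opposite strands can overlap and then form 1 longer run of capitals. Mcm5 and Mcm6 encode subunits of the replicative helicase. The Mcm5 stretch lies at chr8:75109349-75109508 on the plus strand and the Mcm6 stretch at chr1:128359706-128359825 on the minus strand.
Mcm5: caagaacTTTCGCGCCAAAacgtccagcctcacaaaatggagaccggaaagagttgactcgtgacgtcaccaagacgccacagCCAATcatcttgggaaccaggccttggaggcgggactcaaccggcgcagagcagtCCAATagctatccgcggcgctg
Mcm6: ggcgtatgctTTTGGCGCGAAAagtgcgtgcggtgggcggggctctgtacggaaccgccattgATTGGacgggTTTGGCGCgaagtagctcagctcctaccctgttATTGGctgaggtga
Ccnb2 encodes cyclin B2, and Mki67 encodes the Ki-67 protein that coats mitotic chromosomes. The Ccnb2 stretch lies at chr9:70421555-70421724 and the Mki67 stretch at chr7:135716380-135716569, both on the minus strand.
Ccnb2: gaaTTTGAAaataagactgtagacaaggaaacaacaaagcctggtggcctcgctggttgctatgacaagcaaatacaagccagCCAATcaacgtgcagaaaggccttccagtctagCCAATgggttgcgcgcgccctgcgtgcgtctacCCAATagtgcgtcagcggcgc
Mki67: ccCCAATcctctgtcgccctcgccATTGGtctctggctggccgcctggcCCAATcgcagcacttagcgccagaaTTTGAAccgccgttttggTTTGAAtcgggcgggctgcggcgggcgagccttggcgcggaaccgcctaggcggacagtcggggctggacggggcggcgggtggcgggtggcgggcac
Cdk1, the kinase that starts mitosis, is shown at chr10:69352939-69353047 on the minus strand and holds all 3 kinds of motif.
Cdk1: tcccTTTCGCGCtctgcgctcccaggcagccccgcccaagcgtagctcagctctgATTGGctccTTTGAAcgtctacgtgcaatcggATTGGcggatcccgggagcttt

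Of the 47 genes, 38 had a RefSeq promoter window of 300 bases (250 before the start and 50 after it), and 9 did not (Aurkb, Ccnd1, Tpx2, Ccne2, Mcm4, Rb1, Ccnd2, Kif20a and Ccna2). An E2F word stood in the windows of 10 of these 38 genes (26.3%), against 704 of 27025 genes overall (2.6%). The licensing genes held most of them, with a word in 6 of 7 windows (85.7%), while 0 of 5 DNA synthesis windows had one. Over the E2F, licensing and DNA synthesis genes together it stood in 8 of 16 windows (50%). By contrast, 1 of 15 windows of mitotic genes and proliferation markers had one. A CHR word showed the opposite layout, in 11 of those 15 windows (73.3%) and in 3 of 16 windows of the E2F, licensing and DNA synthesis genes (18.8%), against 20.2% of all genes. CCAAT was present in 14 of the 15 (93.3%) and in 11 of the 16 (68.8%), against 41.1% of all genes. In Cdkn1a, Ccne1, E2f1, Tk1, Tyms and Birc5 none of these letters were found in the window. These matches describe sequence only and are neither binding sites nor a cause of any level reported here.

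Libraries held 6855245 to 13456857 assigned read pairs, and 3 counts, the floor used for detection, correspond to 0.223 to 0.438 CPM (counts relative to the size of the library). Replicate libraries differed by 1.67 to 5.24 chi-square units per gene, more than counting noise alone, so all were treated as separate samples. Levels below are CPM with library sizes scaled by TMM, a trimmed mean of ratios between libraries, over all 18 libraries. Smim30 is listed under its older symbol 2610001J05Rik. It was at 14.7 to 15.8 CPM in siCtrl and 6.40 to 8.51 in siSmim30 (log2 fold change -0.97, SE 0.12, adjusted p = 6.17e-08), at 49.8 to 54.0 in Mut AdCtrl and 60.6 to 65.5 in Mut AdSmim30 (0.28, SE 0.06, adjusted p = 0.0052). It did not differ detectably between WT (51.7 to 60.1) and Mut (50.4 to 61.2), where a gene-level count does not check a mutation that leaves the transcript in place. The 9 macrophage markers were detected in every group, with summed levels of 12000 to 14700 CPM in primary cells and 2180 to 2360 in IC-21. Lyz2 alone made up 57.1 to 63.2% of that sum in primary cells, whereas Cd68 led in IC-21 with 24.2 to 27.3%. The 8 markers of large peritoneal macrophages summed to 1410 to 1670 in primary cells and to 12.2 to 16.5 in IC-21, where Gata6, Timd4 and Prg4 were at 0. Fn1 led that sum in WT and Mut, and Cd93 led it in both adenovirus groups. T and NK cell markers stayed at or under 1.32 CPM in every library.

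IC-21 cells carried far more cell cycle RNA than primary macrophages. The 47 genes together took 0.643 to 0.702% of all counts in the 6 IC-21 libraries and 0.0906 to 0.1169% in the 12 primary libraries. The inhibitor gene Cdkn1a was the largest part of the primary sum. It gave 3456 of 8540 counts in WT replicate 1 and 6550 of 13682 in Mut AdCtrl replicate 1. In siCtrl replicate 1 it gave 1969 of 44069. For 41 of 47 genes every IC-21 library lay above every primary library, against 27.7% of the 15359 genes compared. The 41 include 10 genes with too few counts to be tested between Mut and WT, which pass a count filter through IC-21. For 2 genes, Ccnd2 and Cdkn1a, every IC-21 library lay below, against 31% of all genes. The other 4, Ccnd1, Ccnd3, Rb1 and Cdkn1b, overlapped, and with libraries scaled by their totals instead Ccnd1 alone overlapped while Ccnd3, Rb1 and Cdkn1b stood higher in IC-21. That scaling, chosen after seeing the data, also moved the counts over all genes from 4257 above and 4767 below to 7781 above and 2470 below. In bulk RNA fewer dividing cells and less RNA per dividing cell cannot be told apart.

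**Figure D1:**
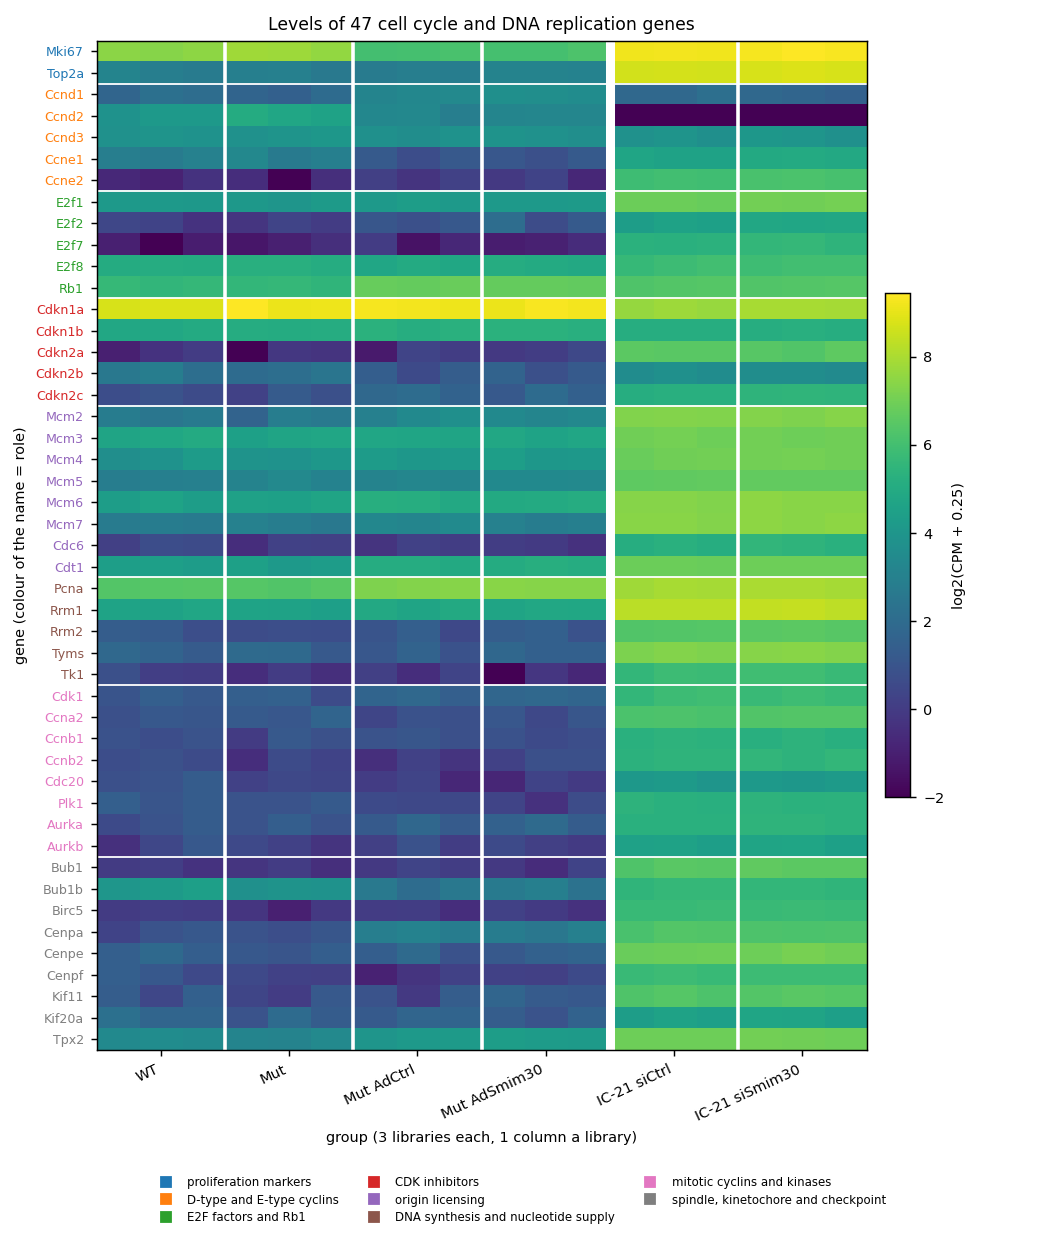
Level of each of the 47 genes (rows, ordered and coloured by role) in each of the 18 libraries (columns, in 6 groups), as log2 of CPM plus a small constant. Yellow is high and dark purple is low: the 6 IC-21 columns at the right are brighter than the 12 primary columns in 41 rows, while Ccnd2 is at the bottom of the scale there and Cdkn1a is brighter in the primary columns.

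Against WT macrophages, siCtrl IC-21 cells had 45 of the 47 genes past an adjusted p of 0.05, of which 43 were higher and 2 were lower, by edgeR's quasi-likelihood test with Benjamini-Hochberg adjustment over all genes tested. Calls were common in this comparison, with 40.1% of 14066 genes called higher and 40.2% lower. The 43 include 10 genes, named below, with too few counts to be tested between Mut and WT. These 10 entered this fit through their IC-21 counts, so their higher calls were largely fixed by the filter. The counts and medians that include them are description only. Line, siRNA transfection and the part of the study coincide here and cannot be told apart. The median log2 fold change of the 47 genes was 4.24, against 0.01 for all genes. Scaling by library totals shifted the median of all genes by 0.70, turned the split of all calls from 50% higher to 75.2% higher, and called 45 of the 47 genes higher and 2 lower with a median of 4.94. A change of scaling moves every gene by nearly the same amount. The distance of the cell cycle genes from the rest could therefore hardly change, and its constancy is no test.

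The proliferation markers separated the cells clearly. Top2a, the topoisomerase that untangles replicated DNA (chr11:98992943-99024189, minus strand), was at 8.68, 7.20 and 6.63 CPM in WT and at 410.1, 417 and 405 in siCtrl, a log2 fold change of 5.81 (SE 0.07). Mki67 (chr7:135689784-135716361, minus strand) was at 176, 164 and 179 CPM in WT and 579.5, 597.5 and 589.8 in siCtrl, a log2 fold change of 1.80 (SE 0.05). No library of either group overlapped the other for these genes, yet Mki67 was already abundant in WT. Per kilobase of counted exon, Mki67 stood at 17.2 CPM in WT, the third of the 47 genes after Cdkn1a (127) and Pcna (35.9), whereas Top2a stood at 0.833 and Cdk1 at 0.425. In siCtrl the order per kilobase was Pcna (98.5), Cdkn2a (79.7), Mki67 (58.5), Cdkn1a (58.3) and Top2a (45.6), and the levels of Mki67 and Cdkn1a did not differ beyond their spread.

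The 8 licensing genes, which load the MCM helicase on replication origins before S phase, were all higher in IC-21, with log2 fold changes of 2.18 to 4.93. Among them Mcm2, a helicase subunit, was at 6.70, 5.40 and 6.09 CPM in WT and 153, 161.5 and 157 in siCtrl. Mcm5, whose promoter is printed above, was at 6.94, 7.48 and 7.61 CPM in WT and at 96.7, 101 and 102 in siCtrl. All 6 MCM genes and both loading factors, Cdc6 and Cdt1, had IC-21 libraries above every primary library. The 5 genes of DNA synthesis and nucleotide supply also stood higher, with log2 fold changes of 1.49 (Pcna, the sliding clamp of DNA polymerase) to 5.80 (Tyms, thymidylate synthase). Tyms was at 3.35, 2.91 and 2.17 CPM in WT and 145, 161 and 149 in siCtrl (SE of the log2 fold change 0.10). Tk1, thymidine kinase of S phase, was at 1.49, 0.831 and 0.761 CPM in WT and 48.0, 56.5 and 55.3 in siCtrl, a log2 fold change of 5.73 (SE 0.16). Rrm1 and Rrm2, the subunits of ribonucleotide reductase, completed this group and were both higher.

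The 8 mitotic cyclins and kinases (Cdk1, Ccna2, Ccnb1, Ccnb2, Cdc20, Plk1, Aurka and Aurkb) were all higher in IC-21, by 3.25 to 5.40 on the log2 scale. In WT their group means lay between 1.19 and 2.19 CPM, close to the floor, and in siCtrl between 17.1 and 73.0. Cdk1 was at 1.74, 2.49 and 2.07 CPM in WT and 47.4, 58.0 and 61.0 in siCtrl (log2 fold change 4.77, adjusted p = 3.91e-30). The 9 spindle, kinetochore and checkpoint genes were likewise all higher, by 1.38 (Bub1b, the checkpoint kinase-like protein BubR1) to 6.95 (SE 0.15, Bub1, a related kinase of the same checkpoint). Bub1 was at 0.744, 0.831 and 0.544 CPM in WT and 77.5, 90.8 and 87.6 in siCtrl. Birc5, the survivin subunit of the chromosomal passenger complex, was at 0.744, 0.831 and 0.761 CPM in WT and 52.6, 52.1 and 55.2 in siCtrl, a log2 fold change of 6.11 (SE 0.16). Cenpa, the histone that marks centromeres, was at 0.992, 1.66 and 1.96 CPM in WT and 72.1, 82.4 and 80.6 in siCtrl, a log2 fold change of 5.69 (SE 0.13). The WT values rest on few reads, so the sizes of these folds are less certain than their direction. Cenpe, Cenpf, Kif11, Kif20a and Tpx2 fell inside the same range.

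**Figure D2:**
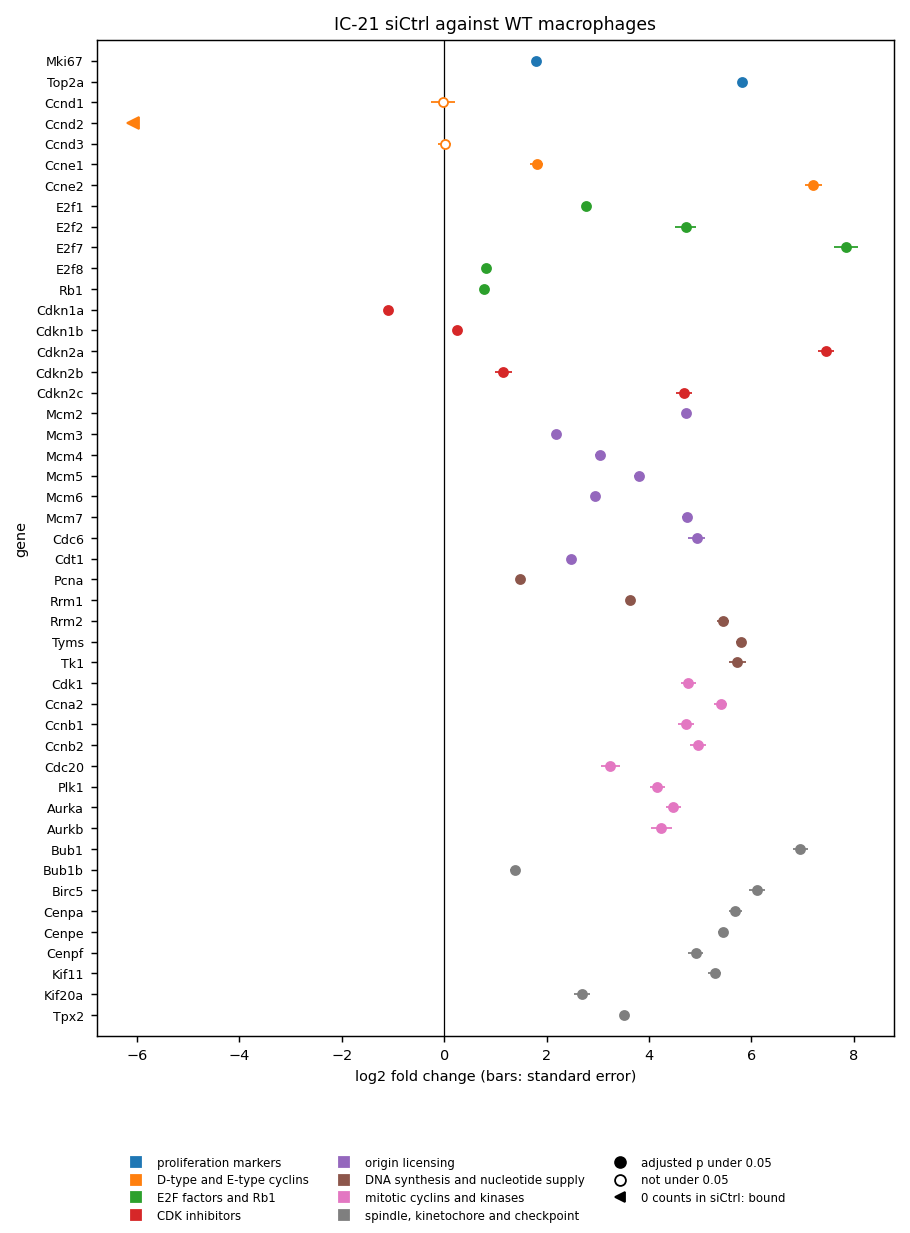
Log2 fold change of siCtrl IC-21 cells over WT macrophages for the 47 genes (points, coloured by role, with bars of 1 SE); filled points passed an adjusted p under 0.05, and the triangle for Ccnd2 is a bound because siCtrl held no counts. Only Ccnd2 and Cdkn1a are filled on the lower side, and Ccnd1 and Ccnd3 lie next to 0 unfilled.

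The steps before S phase were less uniform. All 5 of the E2F factors and Rb1 were higher, from Rb1 at 0.78 and E2f8 at 0.82 to E2f7 at 7.85. E2f7, an E2F that represses the G1/S genes late in the cycle, gave 0.248, 0 and 0.217 CPM in WT, 4 counts in all, and 39.9, 38.1 and 40.6 CPM in siCtrl, a ratio of 241 with a counting interval of 93.9 to 886. Ccne2, an E-type cyclin that activates CDK2 at G1/S, gave 0.372, 0.277 and 0.544 CPM in WT and 59.1, 63.0 and 60.3 in siCtrl, a ratio of 150 (81.3 to 313). Its paralog Ccne1 differed less, at 1.81 (SE 0.13) on the log2 scale. These 95% intervals cover counting error only.

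The D-type cyclins took 3 different courses, as the plot of cyclins and inhibitors by group shows. Ccnd2 (chr6:127125162-127152193, minus strand) had no counts in any of the 6 IC-21 libraries and was at 14.1, 18.3 and 17.4 CPM in WT, so that siCtrl was at least 67.7-fold lower, counted against 3 reads per library. It was at 32.2, 27.0 and 23.6 CPM in Mut, 9.49, 9.94 and 7.27 with the control virus, and 8.94, 9.26 and 9.26 with the SMIM30 virus. Mut libraries were the highest for Ccnd2 and did not overlap any other group. Ccnd3 was nearly level, at 13.5, 14.96 and 13.8 CPM in WT, 13.6, 14.9 and 16.6 in Mut, 13.2, 11.9 and 14.2 in Mut AdCtrl, 14.5, 13.7 and 12.5 in Mut AdSmim30, 13.7, 14.9 and 12.9 in siCtrl, and 16.6, 15.3 and 12.96 in siSmim30. Ccnd1 was lowest in IC-21 and uninfected primary cells, at 3.10, 4.43 and 4.02 CPM in WT, 3.00, 2.57 and 3.71 in Mut, 3.38, 3.36 and 4.34 in siCtrl, and 3.37, 3.10 and 2.65 in siSmim30. Both adenovirus groups were higher without overlap, at 8.82, 9.71 and 10.3 CPM with the control virus and 12.8, 12.4 and 11.6 with the SMIM30 virus. Between siCtrl and WT the log2 difference was -0.03 (adjusted p = 0.913) for Ccnd1 and 0.01 (adjusted p = 0.927) for Ccnd3. Scaled by library totals these became 0.67 (adjusted p = 0.00767) and 0.72, which is the shift of all genes under that scaling. With both IC-21 groups set against all 4 primary groups, Ccnd1 was lower at -0.87 (adjusted p = 5.62e-09).

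**Figure D3:**
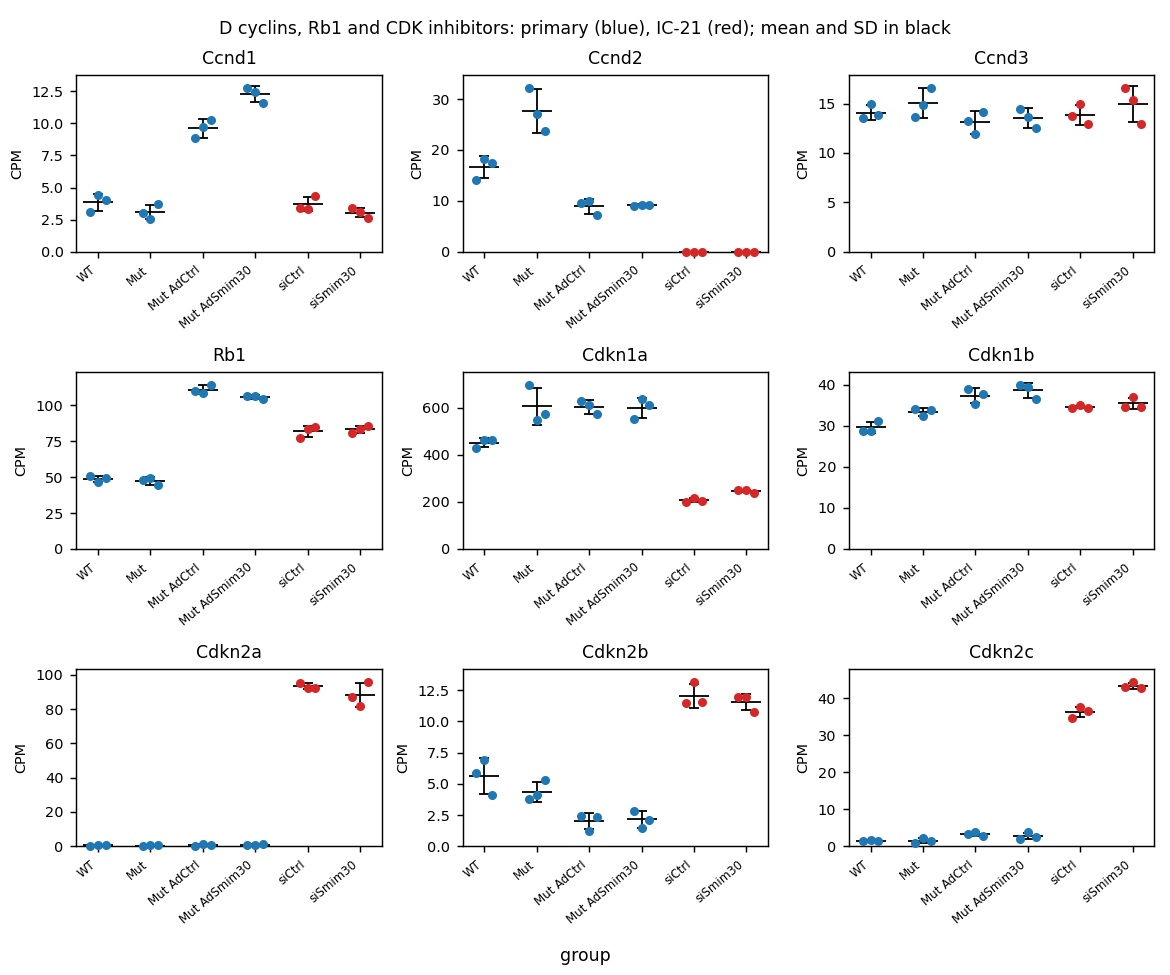
CPM of the D-type cyclins, Rb1 and the CDK inhibitors in each library (points) with the mean and SD of each group of 3 (bars); primary groups are blue and IC-21 groups red, and each panel has its own axis. Ccnd2 is at 0 and Cdkn2a is high in IC-21 only, Ccnd1 and Rb1 are highest in the adenovirus groups.

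The CDK inhibitors also divided. Cdkn1a, which encodes p21 and is a classic p53 target (chr17:29090976-29100727, plus strand), was at 428.5, 464 and 462.5 CPM in WT, 697, 548 and 572 in Mut, 628, 609.7 and 573 with the control virus, and 553.5, 636 and 611 with the SMIM30 virus. The line held less, with 201, 216 and 204 CPM in siCtrl and 249.6, 249 and 239.8 in siSmim30. No IC-21 library reached the lowest primary library, and the log2 difference between siCtrl and WT was -1.09 (adjusted p = 1.09e-26). Cdkn2a, whose locus encodes p16 and the alternative reading frame protein ARF (chr4:89274471-89294653, minus strand), ran the other way, at 0.248, 0.554 and 0.761 CPM in WT and 95.4, 92.3 and 92.5 in siCtrl, a ratio of 175 (102 to 330). It stayed at or under 1.15 CPM in all 12 primary libraries, and was at 87.2, 81.7 and 95.8 CPM in siSmim30. A gene-level count does not say which of its transcripts was present.

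The remaining inhibitors were higher in siCtrl than in WT by 0.25 (Cdkn1b, p27, adjusted p = 0.00455), 1.16 (Cdkn2b, p15) and 4.69 (Cdkn2c, p18) on the log2 scale. Cdkn1b was at 28.8, 28.8 and 31.2 CPM in WT, 34.0, 32.4 and 33.8 in Mut, 39.0, 35.3 and 37.6 in Mut AdCtrl, 39.9, 39.4 and 36.5 in Mut AdSmim30, 34.4, 35.0 and 34.4 in siCtrl and 34.6, 37.1 and 34.6 in siSmim30. Its call against WT was lost with both IC-21 groups against all primary groups (0.02, adjusted p = 0.657). Cdkn2b was at 5.83, 6.92 and 4.13 CPM in WT, 3.75, 4.11 and 5.28 in Mut, 2.40, 1.26 and 2.31 in Mut AdCtrl, 2.83, 1.50 and 2.12 in Mut AdSmim30, 11.5, 13.1 and 11.5 in siCtrl, and 11.9, 11.9 and 10.8 in siSmim30. Cdkn2c was at 1.36, 1.66 and 1.31 CPM in WT, 0.899, 2.18 and 1.47 in Mut, 3.35, 3.88 and 2.77 in Mut AdCtrl, 2.04, 3.79 and 2.56 in Mut AdSmim30, 34.8, 37.6 and 36.5 in siCtrl, and 43.2, 44.4 and 42.8 in siSmim30. Rb1 (chr14:73183673-73325822, minus strand), the pocket protein these inhibitors keep active, was at 50.5, 46.5 and 49.3 CPM in WT, 48.3, 49.6 and 44.2 in Mut, 110.2, 108 and 114 in Mut AdCtrl, 106, 107 and 104.5 in Mut AdSmim30, 77.5, 83.6 and 84.8 in siCtrl, and 80.8, 83.8 and 85.4 in siSmim30. With TMM its IC-21 levels lay between the uninfected and the infected primary cells, but scaled by library totals they lay above every primary library.

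Other genes of the same pathways were counted by list, where 40.1% of all 14066 genes were called higher and 40.2% lower. Of 33 further genes of the replication fork and origin firing, 33 were higher in siCtrl than in WT, led by Ticrr (7.59), Clspn (7.54), Orc1 (6.77) and Pole (6.24), on the log2 scale. Of 12 genes of nucleotide supply and chromatin assembly, 11 were higher, among them Hells (4.99) and Uhrf1 (4.69), which act on chromatin during replication. Of 48 mitosis and cytokinesis genes, 47 were higher and 1, the securin gene Pttg1, was lower (-0.73). Pbk (7.98), Kif15 (7.04), Spc24 (6.55) and Knl1 (6.47) differed most. Between Mut and WT only 24 of these 48 genes and 29 of the 33 replication genes had enough counts to be tested. The rest entered this fit through their IC-21 counts, so their higher calls were largely fixed by the filter. Among 14 cell cycle transcription factors and pocket proteins 9 were higher, among them Mybl2 (5.18), Tfdp2 (4.10) and Foxm1 (4.05), and 4 were lower. Of these E2f6, a repressive E2F, had no counts in siCtrl and a mean of 36.1 CPM in WT, at least 147-fold lower. Among 17 other CDKs and regulators 12 were higher, among them Cdkn3 (4.13), Cks1b (3.79) and Cks2 (3.02), and 1 was lower. That gene, the inhibitor Cdkn1c (p57), had no counts in siCtrl and a mean of 281 CPM in WT, at least 1150-fold lower.

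The list of p53 and its targets had 6 of 20 tested genes higher and 12 lower, against 40.1% and 40.2% of all genes. Its median log2 fold change was -0.56. The lower genes included Phlda3 (at least 9.02-fold, with no counts in siCtrl), Btg2 (-2.70), Plk2 (-2.23) and Fas (-2.09). Scaled by library totals this list had 10 higher and 8 lower with a median of 0.15, so its balance depends on the scaling. The medians of these lists do not depend on the genes without counts, which remain the lowest at their bounds. Fibroblast and mesothelial markers, 10 genes, summed to 276 to 303 CPM in WT and to 0.432 CPM or less in IC-21, and 7 mast cell markers summed to 7.81 to 9.35 in WT and to 0 in siCtrl. Their part in these differences was not tested.

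Knockdown of Smim30 in IC-21 came with small and one-sided rises of cell cycle genes. Of 46 genes tested between siSmim30 and siCtrl, 13 rose and 0 fell, while 2.39% of all 13576 genes were called higher and 1.09% lower. The differences were at most 1.28-fold, with a median log2 fold change of 0.10 over the 46 genes and -0.002 over all genes, and 39 of the 46 were positive against 49.2% of all genes. At an unadjusted p under 0.05 there were 23 of the 46, against 14.2% of all genes. For 18 of the 46 every siSmim30 library lay above every siCtrl library, against 7.62% of all genes tested, and for 0 did every one lie below, against 9.93%. Ccnd2 was not tested because neither IC-21 group had counts.

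By role, the rises comprised both proliferation markers, 2 of 4 D-type and E-type cyclins, 3 of 5 of the E2F factors and Rb1, 2 of 5 inhibitors, 1 of 8 licensing, 1 of 5 DNA synthesis, 1 of 8 mitotic and 1 of 9 spindle genes, and roles were not tested against each other. E2f2, an activating E2F, was at 20.7, 23.9 and 22.3 CPM in siCtrl and 28.7, 27.4 and 29.0 in siSmim30 (log2 fold change 0.35, SE 0.08, adjusted p = 0.00445). Ccne1 was at 26.4, 24.3 and 23.6 CPM in siCtrl and 31.1, 31.5 and 29.8 in siSmim30 (0.34, SE 0.08, adjusted p = 0.00489). Cdc6, which loads the helicase on origins, was at 35.0, 37.6 and 34.3 CPM in siCtrl and 46.8, 43.4 and 38.5 in siSmim30 (0.28, SE 0.07, adjusted p = 0.00829). In each of these genes the groups did not overlap. E2f1, another activating E2F, was at 117, 116 and 111 CPM in siCtrl and 130.3, 125 and 131 in siSmim30 (0.18, SE 0.04, adjusted p = 0.00373). E2f7 was at 39.9, 38.1 and 40.6 CPM in siCtrl and 47.1, 49.3 and 42.8 in siSmim30 (0.25, adjusted p = 0.015). Ccne2 was at 59.1, 63.0 and 60.3 CPM in siCtrl and 71.3, 72.8 and 68.0 in siSmim30 (0.23, adjusted p = 0.00307). Thus both E-type cyclins and 3 of the 4 E2F genes rose, and E2f8 and Rb1 did not pass.

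The inhibitors Cdkn1a and Cdkn2c rose with them. Cdkn1a had the smallest adjusted p of the 13 (log2 fold change 0.26, SE 0.03, adjusted p = 9.02e-08) and Cdkn2c changed by 0.27 (SE 0.07, adjusted p = 0.00691), with the values of each library given above and no overlap between the groups. Mki67 was at 579.5, 597.5 and 589.8 CPM in siCtrl and 626, 690.3 and 635.5 in siSmim30 (0.15, SE 0.03, adjusted p = 0.000721). Top2a (0.12, adjusted p = 0.0131) and Rrm1 (0.13, adjusted p = 0.0112) also rose. Of the mitotic genes, Ccna2, cyclin A, was at 72.6, 75.6 and 70.6 CPM in siCtrl and 80.0, 82.4 and 83.7 in siSmim30 (0.18, adjusted p = 0.0166). Bub1 was at 77.5, 90.8 and 87.6 CPM in siCtrl and 99.7, 95.4 and 94.6 in siSmim30 (0.18, adjusted p = 0.0116). The other 7 mitotic cyclins and kinases and the other 8 spindle genes did not pass. Cdk1 was at 47.4, 58.0 and 61.0 CPM in siCtrl and 54.5, 59.0 and 53.8 in siSmim30, a log2 difference of 0.01 with an interval of -0.12 to 0.14.

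Of the further genes of the pathway, Prim2 (0.33) and Pola1 (0.15), subunits of the DNA polymerase alpha primase complex, rose among 33 replication genes. Cdk4 (0.23, adjusted p = 0.000111), Cdk6 (0.15) and the phosphatase gene Cdc25a (0.24) rose among 16 CDK regulators, Hells (0.15) and Uhrf1 (0.14) among 12 of nucleotide supply and chromatin, and Pbk (0.29) and Spc25 (0.26) among 48 of mitosis. None of these lists had a gene called lower. Over all genes 2.39% were called higher and 1.09% lower, so that absence says little. Of 19 genes of the p53 list 0 passed by edgeR, with 5 at an unadjusted p under 0.05 and a median of -0.04. With library totals as scale the 13 genes were still called higher and 0 lower, while the share of higher calls among all genes moved from 68.6% to 54.3%. The count of 13 fell to 8 without siCtrl replicate 2, to 7 without siSmim30 replicate 2 and to 2 when all 18 libraries were fitted together, and E2f1 alone was called under every alternative.

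**Figure D4:**
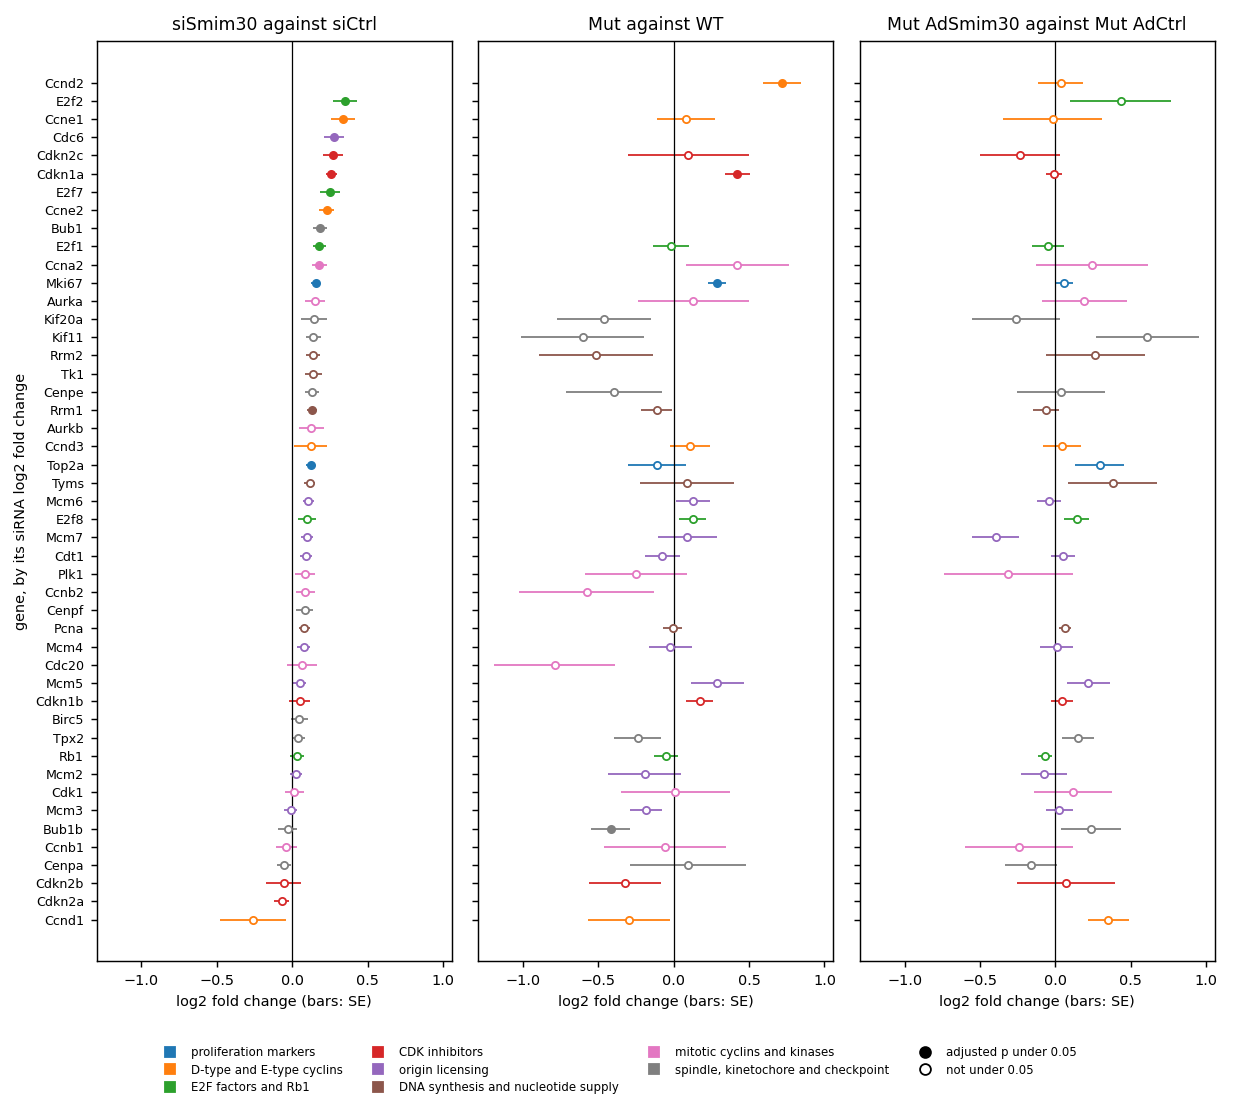
Log2 fold change of each gene (points with bars of 1 SE) in the 3 perturbations of Smim30, in rows ordered by the siRNA comparison; filled points passed an adjusted p under 0.05. The siRNA panel has 13 filled points, all to the right of 0, the Mut panel has 4 and the adenovirus panel none.

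Between Mut and WT macrophages, Ccnd2, Cdkn1a and Mki67 rose and Bub1b fell. Of 37 genes tested, 3 rose and 1 fell, against 3.68% of 12500 genes called higher and 2.62% lower, and the median log2 fold change was -0.02 for these genes and -0.01 for all. The untested 10 (Ccne2, E2f2, E2f7, Cdkn2a, Cdc6, Tk1, Aurkb, Bub1, Birc5 and Cenpf) had too few counts in both groups. Ccnd2, with the libraries given above, rose by 0.72 (SE 0.13, adjusted p = 0.000322) and had no overlap between the groups. Cdkn1a rose by 0.42 (SE 0.08, adjusted p = 0.0154), again without overlap. Mki67 was at 176, 164 and 179 CPM in WT and 226, 215 and 194 in Mut, a rise of 0.29 (SE 0.06, adjusted p = 0.00175). At an unadjusted p under 0.05 there were 4 of the 37, against 18% of all genes. By that measure these genes as a set did not change more often than genes in general. Of the 37 log2 fold changes 16 were positive, against 48.4% of all genes. Bub1b was at 15.99, 18.4 and 21.5 CPM in WT and 13.2, 14.5 and 14.2 in Mut (-0.42, SE 0.13, adjusted p = 0.0487), a call lost under 10 of 14 alternatives with adjusted p from 0.05 to 0.302. The Cdkn1a call was lost without WT replicate 1 (adjusted p = 0.116) and without WT replicate 3 (adjusted p = 0.0956). Scaled by library totals, 3 genes rose and 0 fell.

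Every Mut library lay above every WT library for 5 of the 37 genes tested (Ccnd2, Cdkn1a, Cdkn1b, Mcm5 and Mki67), against 11% of all genes, and below for 5 (Bub1b, Ccnb2, Cdc20, Rrm2 and Tpx2), against 10.2%. Of the 6 spindle genes tested, 1 (Bub1b) fell and 5 did not pass, with a median log2 fold change of -0.41. Cdk1 was at 1.74, 2.49 and 2.07 CPM in WT and 2.55, 2.70 and 1.27 in Mut, a log2 difference of 0.01 (adjusted p = 0.996). Of the 7 licensing, 4 DNA synthesis and 7 mitotic cyclin and kinase genes tested, 0 passed by edgeR and 0 had an unadjusted p under 0.05. The mitotic cyclins and kinases had means of 0.895 to 2.32 CPM in Mut, where small differences were not detectable at this depth. Of 29 further replication genes 0 passed, with 0 at an unadjusted p under 0.05, and of 24 of mitosis 0 passed, with 5 at an unadjusted p under 0.05. Single genes that rose were Dck, the deoxycytidine kinase of nucleotide salvage (0.54, adjusted p = 9.09e-05), Cdk6 (0.22, adjusted p = 0.0114) and Mdm2, the ligase that degrades p53 (0.22, adjusted p = 0.00623). Bax, a p53 target that promotes cell death, fell (-0.20, adjusted p = 0.0318). B cell markers summed to 88.7 to 94.3 CPM in WT and 60.5 to 68.4 in Mut. Cd22, which IC-21 also had at 34.3 to 43.9 CPM, made up 87% or more of that sum and fell (-0.51, adjusted p = 9.75e-06), while Pax5 (0.64), Cd79a (-0.07) and Ms4a1 (-1.01) did not pass. Dendritic cell markers summed to 6.96 to 7.56 in WT and 10 to 15.5 in Mut, where Batf3 rose (1.47, adjusted p = 7.03e-05) and Zbtb46, the other marker tested, did not pass (0.02, adjusted p = 0.989). Of 6 tested markers of large peritoneal macrophages, Cd93 (-0.41) and Prg4 (-0.66) fell, with a median of -0.43. Fibroblast and mesothelial markers summed to 276 to 303 in WT and 250 to 295 in Mut. The part of these cells in the results was not tested.

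Return of SMIM30 by adenovirus left these genes without a call. Between Mut AdSmim30 and Mut AdCtrl, 0 of 36 genes passed by edgeR, by DESeq2 or by limma-voom, against 0.583% of 12701 genes called higher and 0.842% lower. At an unadjusted p under 0.05 there were 2, against 10.5% of all genes. These were Ccnd1, with a log2 difference of 0.35 (interval 0.08 to 0.63, adjusted p = 0.264) and every Mut AdSmim30 library above every Mut AdCtrl library, and Mcm7 with -0.40 (-0.70 to -0.09, adjusted p = 0.26). Mki67 was at 65.1, 66.5 and 71.8 CPM with the control virus and 67.4, 67.3 and 76.6 with the SMIM30 virus, a log2 difference of 0.06 (interval -0.06 to 0.18). Cdk1 was at 2.97, 3.43 and 2.54 CPM with the control virus and 3.17, 3.44 and 3.09 with the SMIM30 virus (0.12, interval -0.40 to 0.63). The other genes that rose in Mut had narrow intervals here too, with Ccnd2 at 0.04 (-0.26 to 0.34) and Cdkn1a at -0.01 (-0.13 to 0.11). With the control virus the means of Mki67 (67.8 CPM) and Ccnd2 (8.90) were already below WT (173 and 16.6), and that of Cdkn1a (603.5) was above WT (451.6). The SMIM30 virus raised the Smim30 count by 0.28 on the log2 scale. No infected WT group was analysed here, so reversal of the rises in Mut was not tested. Ccne2, E2f7, Cdkn2a, Cdc6, Tk1, Ccnb2, Cdc20, Aurkb, Bub1, Birc5 and Cenpf had too few counts to test. Of the pathway lists, Cdk6 rose (0.17, adjusted p = 0.00299) and Cdkn1c fell (-0.13, adjusted p = 0.00328). Fibroblast and mesothelial markers moved between these groups, from 110 to 134 CPM in Mut AdCtrl to 59.5 to 68.2 in Mut AdSmim30, with 7 of 7 tested markers lower, and their part in the values was not tested.

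The effect of siRNA in IC-21 and that of the mutation in primary cells were compared directly as a difference of log2 fold changes. It passed for 0 of 47 genes by edgeR, DESeq2 and limma-voom, with a lowest adjusted p of 0.121, against 1.26% of 14804 genes called higher and 1.25% lower. At an unadjusted p under 0.05 there were 9 of the 47, against 13.3% of all genes, and 37 of the 47 differences were positive, against 50% of all genes. The median difference was 0.18 for these genes and 0 for all. The 10 genes untested between Mut and WT entered this fit only through their IC-21 counts, and their mutation effects rest on few reads. Cdc6, Cenpf and Tk1 of that 10 were among the 9. The 9, the 37 and the median are therefore description only. Mki67 differed by -0.13 (interval -0.27 to 0.01), Cdkn1a by -0.16 (-0.33 to 0.00) and E2f1 by 0.19 (-0.04 to 0.42). With library totals the share of higher calls among all genes moved from 50.3% to 38.3%. The larger number of calls in IC-21 is therefore not shown to be a different response. Ccnd2 carries no information here, since IC-21 had no counts for it.

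Between the control adenovirus group and uninfected Mut cells, Cenpa, Ccnd1 and Rb1 were among the genes that rose, and Ccne1 and Mki67 among those that fell. Virus, longer culture and part of the study coincide in this comparison and cannot be told apart. Of 36 genes tested, 12 rose and 6 fell, near the share of all 12798 genes, 27.1% called higher and 26.5% lower, so the count says nothing particular about cell cycle genes. The median was 0.15 for these genes and -0.001 for all. Cenpa rose most, by 2.13 (SE 0.25, adjusted p = 1.12e-08), from 1.65, 1.41 and 1.86 CPM in Mut to 7.29, 8.22 and 6.81 in Mut AdCtrl. Ccnd1 rose by 1.58 (SE 0.20, adjusted p = 8.36e-08) and Rb1 by 1.20 (SE 0.06, adjusted p = 2.25e-16), with the libraries given above. Neither gene's groups overlapped.

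Genes of licensing and synthesis also rose: Mcm2 (0.92), Cdt1 (0.70), Mcm7 (0.49), Mcm6 (0.45), Pcna (0.85, adjusted p = 2.77e-14) and Rrm1 (0.27), as did Cdkn2c (1.09), E2f2 (1.08) and Tpx2 (0.87), an activator of Aurora A. Pcna was at 87.1, 79.6 and 90.6 CPM in Mut and 151, 161 and 162 in Mut AdCtrl. Ccne1 fell by 2.05 (SE 0.26, adjusted p = 4.3e-08), from 9.74, 6.03 and 7.33 CPM in Mut to 2.11, 1.37 and 2.08 in Mut AdCtrl. Mki67 fell by 1.67 (SE 0.06, adjusted p = 7.11e-19), from 226, 215 and 194 CPM to 65.1, 66.5 and 71.8. Ccnd2 (-1.64), Bub1b (-1.46), Cdkn2b (-1.17) and E2f8 (-0.35) also fell. Markers commonly used for proliferation therefore moved in opposite directions, with Mki67 down, Pcna up and Top2a not called. Cdk1 was at 2.55, 2.70 and 1.27 CPM in Mut and 2.97, 3.43 and 2.54 in Mut AdCtrl (0.47, adjusted p = 0.22), and 0 of the 5 mitotic cyclins and kinases tested passed by edgeR, with 1 (Ccna2) at an unadjusted p under 0.05, which limma-voom called lower (adjusted p = 0.0494). The calls of E2f2, Mcm7 and Rrm1 were each lost without Mut replicate 3 and without Mut AdCtrl replicate 3, those of E2f2 also without Mut replicate 1 and Mut AdCtrl replicate 1, and that of Rrm1 also without Mut AdCtrl replicate 1. DESeq2 called 15 of the 18 and left out the same genes, with adjusted p of 0.103 for E2f2, 0.0667 for Mcm7 and 0.0883 for Rrm1.

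**Figure D5:**
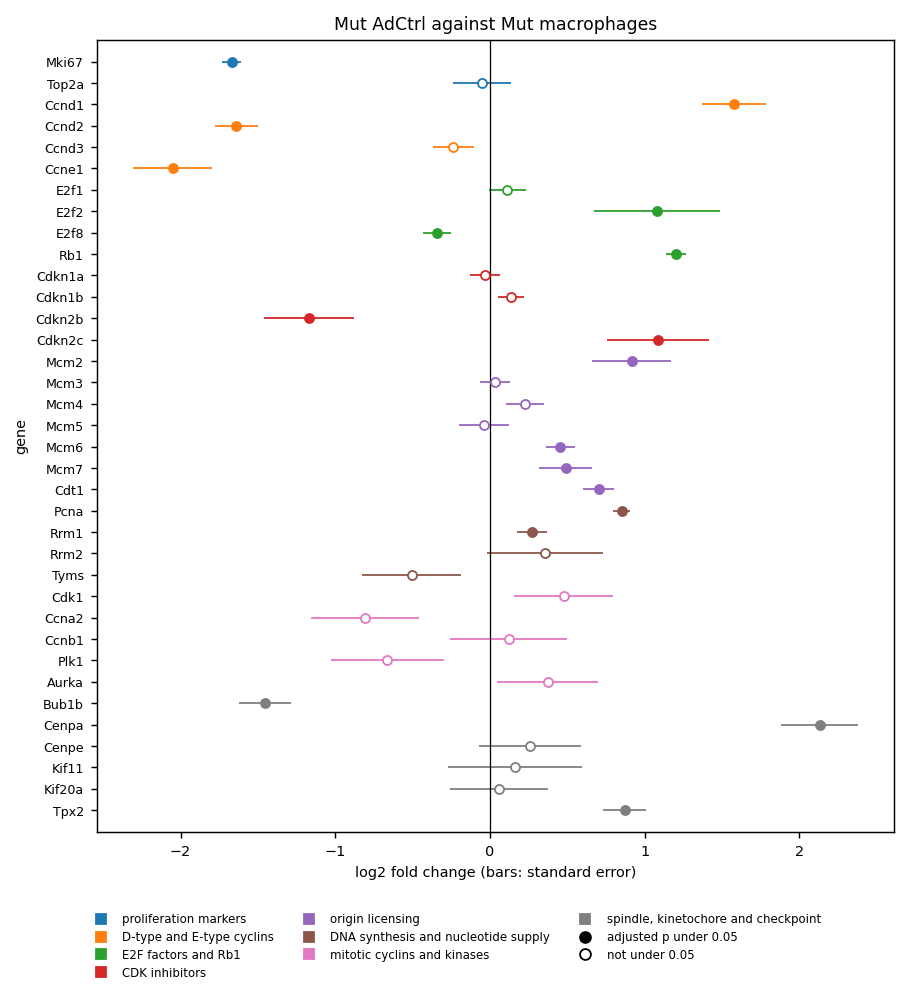
Log2 fold change of Mut AdCtrl over uninfected Mut macrophages for the genes tested (points coloured by role, with bars of 1 SE); filled points passed an adjusted p under 0.05. Cenpa (2.13) and Ccnd1 (1.58) lie farthest to the right, Ccne1 (-2.05), Mki67 (-1.67) and Ccnd2 (-1.64) farthest to the left.

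The pathway lists moved in both directions in this comparison as well, where 27.1% of all 12798 genes were called higher and 26.5% lower. The counts of each list were not tested against those shares. Of 20 genes of the p53 list 12 rose and 4 fell, led by Phlda3 (2.28), Btg2 (1.49), Bbc3 (1.29) and Gadd45a (1.20), while Cdkn1a itself was not called. Of 30 replication genes 10 rose and 4 fell, with Cdc45, a partner of the MCM helicase, at 1.46, and of 28 mitosis genes 10 rose and 3 fell, with Kif23 at 1.69 and Cdc25b at 1.65. Tfdp2, a dimer partner of E2F factors, rose by 2.39, whereas E2f5 (-1.05) and the pocket protein gene Rbl1 (-0.998) fell. Among 17 other CDKs and regulators 3 rose, among them Cdkn1c (1.13), and 6 fell, among them Pkmyt1 (-1.63). With library totals as scale that list had 4 higher and 4 lower. Fibroblast and mesothelial markers fell in 7 of 7 tested, from 250 to 295 CPM in Mut to 110 to 134 in Mut AdCtrl. Of 6 tested markers of large peritoneal macrophages, Cd93 (1.89) and Icam2 (1.01) rose and Fn1 (-2.73), Timd4 (-2.37) and Prg4 (-0.70) fell. The summed level of that list is mostly Fn1 in Mut and mostly Cd93 in Mut AdCtrl. The part of these cells in the changes was not tested.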

How the data were processed

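Each of the 18 libraries came with a deposited table of raw counts per gene, made by the authors with featureCounts 2.0.3 per the file headers, on GENCODE gene models of GRCm38. HISAT2, fastp and FastQC are named in the submitters' processing notes. The counts were taken as deposited, 55401 genes per library, and identifiers were matched to mouse symbols. The 47 genes, the pathway lists and the markers were chosen with earlier results of these data known.

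Comparisons were fitted on all genes passing filterByExpr with edgeR 4.0.16 (robust quasi-likelihood F test, TMM) in R 4.3.3, using only the groups compared, and p-values were adjusted by Benjamini-Hochberg over all genes tested. A gene was called at an adjusted p under 0.05. Printed intervals of log2 differences are 95% intervals of the fit. DESeq2 1.42.0, limma-voom (limma 3.58.1), other scalings and filters, a fit of all 18 libraries, a replicate block and the omission of each library were alternatives. The pipeline was tested on simulated data. Values per library are printed for genes called in a Smim30 comparison (up to 10, largest change first), the 10 largest differences between siCtrl and WT, D-type cyclins, inhibitors, Rb1, Mki67 and Cdk1. Mcm2, Mcm5, Pcna and the genes changed most by the control adenovirus were added after their values were seen. Of each pathway list at most 4 called genes are named, and some items are not reported here. Exons of Top2a and Mcm7 overlap small RNA genes on the same strand, and Ccnd3, Pcna, Tyms, Ccnb1 and Ccnb2 have named pseudogenes that may share reads.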

Additional observations from a re-analysis of the deposited data

Results flagged for a closer look

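For 6 genes of the pathway lists the effect of siRNA in IC-21 differed from the effect of the mutation in primary macrophages by a direct test of the difference (edgeR's quasi-likelihood test, Benjamini-Hochberg adjusted), which is why they are listed. They were 6 of 156 pathway genes tested, near the share of all 14804 genes, 1.26% called higher and 1.25% lower. Comparing log2 fold changes, siRNA minus mutation, Cdk4, the partner of D-type cyclins, differed by 0.382 (adjusted p = 0.0013), with 0.23 after siRNA and -0.16 in Mut. Cdc25a differed by 0.508 (adjusted p = 0.0124), with 0.24 after siRNA and -0.27 in Mut. Ncapd2, a condensin subunit, differed by 0.812 (adjusted p = 0.0251), with 0.02 and -0.79. Dck differed by -0.465 (adjusted p = 0.00524), with 0.07 and 0.54. Csf1, a macrophage growth factor, differed by -0.302 (adjusted p = 0.0272), with 0.12 and 0.43. Cks1b, a CDK subunit, differed by -0.886 (adjusted p = 0.0237), with -0.16 and 0.71. Between Mut and WT alone, Dck and Csf1 were called, while Cdk4, Cdc25a, Ncapd2 and Cks1b were not. Groups of 3 libraries are too small for a test of single outlying libraries.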

How the results depend on the processing

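With library totals as scale, 1 of the 47 genes turned sign in Mut, siSmim30, siCtrl against WT and AdCtrl each, 0 in AdSmim30 and 4 in the difference, none of them called with TMM. In siCtrl against WT it was Ccnd1, from -0.03 to 0.674, and 5 called genes of the p53 and growth control lists turned too. The number of members called between siSmim30 and siCtrl was 13, but 2 in a fit of all 18 libraries and 7 to 13 with 1 library left out, 10 by DESeq2 and 13 by limma-voom. Between Mut and WT it was 4, and 2 to 3 with 1 library left out, the fewest without WT replicate 3. For the difference of both effects it was 0, and 0 to 1 with 1 library left out: Bub1b without WT replicate 1, Cenpf without WT replicate 3, Kif11 without Mut replicate 3. With the replicate number as a block the counts were 3 for Mut, 0 for AdSmim30, 13 for siSmim30, 45 for siCtrl against WT, 18 for AdCtrl and 0 for the difference. Deviations of same-numbered libraries from their group means correlated at -0.139 to 0.089. No pairing by number was seen, but low correlations cannot exclude one and the labels do not say. Calls over all genes varied more than 1.5-fold: 788 between Mut and WT became 1198 in the fit of all 18 libraries and 469 to 957 with 1 library left out. For AdSmim30 181 became 68 by DESeq2, 87 in the fit of all 18 and 66 to 453 with 1 library left out. For siSmim30 472 became 296 by DESeq2, 263 in the fit of all 18 and 309 to 422 with 1 left out, and for the difference 372 became 267 to 571. Depth limits the primary cells, where E2f7, Ccne2 and Cdkn2a rest on 4, 10 and 13 reads over the 3 WT libraries.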

Other observations

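Among genes that control macrophage growth, a list of 11 tested, calls between siCtrl and WT were no more common than over all genes. Csf1, the growth factor of macrophages, had a mean of 75.0 CPM in WT, 101 in Mut, 62.7 in Mut AdCtrl, 55.7 in Mut AdSmim30, 687 in siCtrl and 743 in siSmim30. Its log2 fold change was 3.23 between siCtrl and WT, and it rose in Mut over WT (0.43, adjusted p = 0.000216 by edgeR). The receptor genes Csf2ra (-2.95), Csf2rb (-1.84) and Csf1r (-1.39) were lower in siCtrl than in WT. Myc, a transcription factor that drives growth, was higher by 1.69. Between siCtrl and WT 2 genes of this list were higher and 6 lower, against 40.1% and 40.2% of all 14066 genes. With library totals as scale 8 were higher and 3 lower. Between Mut AdCtrl and Mut, Myc rose by 1.25.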
